A study of Homo sapiens with 2 samples.

Results

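The 10 genes examined here are the zinc finger and helix-loop-helix factors ZEB1, ZEB2, SNAI1, SNAI2 and TWIST1, the mesenchymal genes VIM and FN1, and the epithelial genes KRT8, KRT18 and EPCAM. They were taken by gene symbol from the 61541 rows of the deposited table, and each symbol was found once. The set was selected on the read counts of these same 2 libraries, in which ZEB2 was among the largest increases, so every value of the comparison below is a description and no test was run on it. RNA-seq had been done on Huh7, a human hepatocellular carcinoma cell line, given either the control siRNA si-NC (library Huh7-NC) or si-BRF2, which targets BRF2 (library Huh7-si). There was 1 library per condition, both groups are the same cell line, and which BRF2 siRNA was used for sequencing and the time of harvest are not given in the sources used here. No difference therefore has a replicate check, and the intervals given are 95% intervals that cover counting error only.

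Epithelial-mesenchymal transition is the process in which epithelial cells loosen their junctions and take on features of migrating mesenchymal cells. ZEB, SNAI and TWIST factors bind E-box motifs and repress epithelial genes such as CDH1, which encodes E-cadherin. The ZEB factors and the microRNAs of the miR-200 family repress each other, a loop that is a textbook switch between the epithelial and the mesenchymal state. In liver, hepatocytes carry keratins 8 and 18 as their main intermediate filament pair and secrete fibronectin into plasma, so FN1 in a hepatoma line is not by itself a mesenchymal mark.

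The miR-200 family is shown for its known loop with the ZEB factors. Matches to its seeds set ZEB1 and ZEB2 apart from the other 8 genes by sequence. Given that loop, this contrast was foreseeable and is background only. The mature sequences are from RefSeq (GRCh38.p14), with the seed, bases 2 to 8, in capitals. The first 3 share the seed AAUACUG and the last 2 share AACACUG. On the plus strand, hsa-miR-200b-3p is at chr1:1167160-1167181, hsa-miR-200a-3p at chr1:1167916-1167937 and hsa-miR-429 at chr1:1169055-1169076, while hsa-miR-200c-3p is at chr12:6963742-6963764 and hsa-miR-141-3p at chr12:6964155-6964176.
hsa-miR-200b-3p: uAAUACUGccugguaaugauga
hsa-miR-200c-3p: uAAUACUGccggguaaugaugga
hsa-miR-429: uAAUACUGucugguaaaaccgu
hsa-miR-200a-3p: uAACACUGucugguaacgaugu
hsa-miR-141-3p: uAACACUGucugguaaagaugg

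Matches to the seeds were counted in the longest GENCODE release 29 transcript of each of 19684 protein-coding genes, on the transcript strand. The ZEB1 transcript (6267 bases) held CAGTATT, the reverse complement of the first seed, 6 times and CAGTGTT, that of the second, 7 times. The ZEB2 transcript (9583 bases) also held them 6 and 7 times. Of all transcripts, 23.1% held CAGTATT and 27.8% held CAGTGTT at least 1 time. Among 2927 transcripts of like length to ZEB1 (0.8 to 1.25 times), 0.0683% had as many of either match, ZEB1 included. Among 1221 of like length to ZEB2, the shares were 0.246% and 0.164%, ZEB2 included. The FN1 transcript held 3 and 2 matches, those of KRT8 and SNAI2 held 1 and 0, and those of SNAI1, TWIST1, VIM, KRT18 and EPCAM held none. The microRNAs themselves were not measured by these libraries. The gene rows MIR200A, MIR200B, MIR200C, MIR141, MIR429 and MIR205 had 0 reads in both libraries, and the host transcript MIR200CHG had 0 and 2.

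The table gives for each library an estimated count of reads per gene and a TPM value, which is scaled for gene length and library size. Estimated counts added up to 22852648 for Huh7-NC and 22089016 for Huh7-si. Reads were scaled to CPM, the usual unit of counts relative to the library's total on genes, and a count of 0 allows up to 3 reads, or 0.131 CPM in the control library and 0.136 CPM in the other. The siRNA target BRF2, a subunit of an RNA polymerase III initiation factor, was at 56.0 CPM in the control and at 16.5 CPM after si-BRF2, 70.6% lower. Genes with at least 10 reads over both libraries were compared by the ratio of CPM, Huh7-si over Huh7-NC. Of these 17921 genes, 15.2% were at least 2-fold higher and 1.81% at least 2-fold lower in Huh7-si, and the median log2 fold change was 0.21. TMM scaling by edgeR adds -0.22 to the log2 fold change of each gene and puts the median at -0.01. Genes at least 2-fold higher made up 89.3% of all those past 2-fold, or 78.4% under TMM.

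Of the 10 genes, 8 passed the filter of 10 reads. ZEB2 and FN1 were at least 2-fold higher in Huh7-si, 2 of the 8, beside 15.2% of all genes. Of the 8, 0 were at least 2-fold lower, beside 1.81% of all genes. Because ZEB2 was picked for its increase, nothing can be read from these shares. ZEB1 and VIM were higher by less than 2-fold, KRT8 and KRT18 were lower by less than 2-fold, and the counting intervals of SNAI1 and EPCAM held 0. In bulk RNA, fewer cells of a type and less RNA per cell cannot be told apart. The median log2 fold change of the 8 was 0.23, next to 0.21 for all genes. SNAI2 and TWIST1 were at or under the limit of detection.

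**Figure D1:**
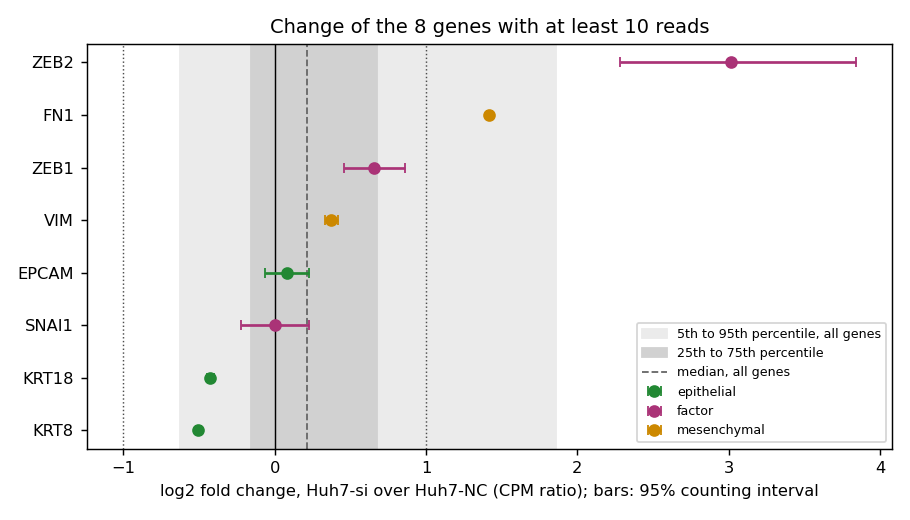
Log2 fold change of CPM, Huh7-si over Huh7-NC, of the 8 genes with at least 10 reads (points), with 95% counting intervals (bars) and the percentiles of all 17921 genes as grey bands; dotted lines mark a 2-fold change. ZEB2 lies at 3.02, beyond the 95th percentile of all genes (1.86), and KRT8 at -0.50 lies above the 5th percentile (-0.62).

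ZEB2 encodes a large repressor with zinc finger clusters at both ends and a homeodomain-like segment between them. ZEB2 (ENSG00000169554) was covered by 17 reads in the control (0.744 CPM) and by 133 reads after si-BRF2 (6.02 CPM). This is an 8.09-fold higher level, a log2 fold change of 3.02 with an interval of 2.28 to 3.84. By TPM the level went from 0.29 to 2.09, a log2 ratio of 2.85, so the transcript was scarce in Huh7-NC and low in Huh7-si. By this ratio ZEB2, which was chosen for its increase, was in place 185 among the 17921 genes with at least 10 reads. Among 12978 genes with at least 100 reads over both libraries, 7 had a larger ratio, and ZEB2 was the fifth among the 12392 with a symbol. In the 896 genes of its length class (8484 bases or more), 99.2% had a smaller ratio.

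The ZEB2 gene lies on chromosome 2 of GRCh38 from 144364364 to 144524583, minus strand (GENCODE release 29). None of the 6 annotated genes that overlap it had reads in either library, among them the antisense gene ZEB2-AS1, and the pseudogene ZEB2P1 had 1 and 4 reads. The RefSeq promoter window of ZEB2 is shown because ZEB2 is the member with the largest change, and that of KRT8 because it had the lowest ratio. Each runs from 250 bases before to 50 bases after a transcript start that RefSeq gives, 5′ to 3′ along the gene, with each E-box core CANNTG in capitals, and both lie inside the span of the gene in GENCODE. ZEB2 has chr2:144520070-144520369 and KRT8 has chr12:52926420-52926719, both on the minus strand (GRCh38.p14). Which transcript starts gave the reads of these genes was not tested, so these windows need not be the promoters in use.
ZEB2: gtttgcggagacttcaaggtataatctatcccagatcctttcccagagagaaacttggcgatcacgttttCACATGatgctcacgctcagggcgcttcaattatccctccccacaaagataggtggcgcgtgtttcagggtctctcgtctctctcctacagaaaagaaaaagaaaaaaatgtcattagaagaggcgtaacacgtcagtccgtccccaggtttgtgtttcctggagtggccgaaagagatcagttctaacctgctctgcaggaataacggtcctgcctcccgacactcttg
KRT8: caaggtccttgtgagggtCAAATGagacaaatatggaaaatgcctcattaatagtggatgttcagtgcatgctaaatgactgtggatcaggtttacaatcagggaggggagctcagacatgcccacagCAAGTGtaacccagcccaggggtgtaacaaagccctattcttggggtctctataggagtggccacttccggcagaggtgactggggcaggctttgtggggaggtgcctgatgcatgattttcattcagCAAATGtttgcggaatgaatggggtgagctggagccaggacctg

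The letters CANNTG read the same on both strands and occurred 1 time in the ZEB2 window and 3 times in the KRT8 window. Of all 35116 windows, 68.7% held at least 1 and 15.3% at least 3. The windows of FN1 and VIM held none, like 31.3% of all windows. The form CACCTG that ZEB and SNAI factors favour, searched on both strands and a subset of CANNTG, was in 20.6% of all windows. It was in neither printed window, and 2 of the 7 windows listed for ZEB1 held it, 4 times in all. For SNAI1, TWIST1, KRT18 and EPCAM no promoter window was found, and SNAI2 was left out of the search.

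ZEB1, the close relative of ZEB2, is a repressor of CDH1 and of the miR-200 genes. ZEB1 (ENSG00000148516) gave 340 reads in the control (14.9 CPM) and 518 reads after si-BRF2 (23.5 CPM). It was 57.6% higher, a log2 fold change of 0.66 (0.46 to 0.86). By TPM it went from 3.06 to 5.98, a log2 ratio of 0.97. The antisense gene ZEB1-AS1, which overlaps it on the opposite strand, went from 38 to 87 reads (1.66 to 3.94 CPM, log2 fold change 1.24, interval 0.68 to 1.83), and strandedness of the counting is not given, so reads of the overlap cannot be told apart. ZEB1 remained the more abundant of the ZEB factors in both libraries, with ZEB2 to ZEB1 read ratios of 0.05 (0.0288 to 0.0813) in the control and 0.257 (0.211 to 0.311) after si-BRF2.

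SNAI1, which encodes Snail, the zinc finger repressor named for its fly relative, was covered by 333 control reads and 323 reads after si-BRF2 (14.6 CPM in each). The log2 fold change was 0.01 (-0.22 to 0.23), with TPM values of 11.6 and 13.2. The sign of so small a value depends on the scaling (-0.22 with TMM). The ratio of SNAI1 to ZEB1 reads went from 0.979 (0.840 to 1.14) in the control to 0.624 (0.541 to 0.718). SNAI2, which encodes Slug, had 1 control read and 3 reads after si-BRF2, a ratio of 3.10 with an interval of 0.249 to 163, and its deposited TPM values run the other way (0.13 and 0.09). TWIST1 had 0 reads in both libraries, which allows up to 3 in each. Of the 5 factors, ZEB1, ZEB2 and SNAI1 were thus detected beyond a few reads, and SNAI1 had the highest TPM of them in both libraries.

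FN1 encodes fibronectin, a secreted matrix and plasma glycoprotein. FN1 (ENSG00000115414) went in reads from 45086 to 116436, that is from 1973 CPM in the control to 5271 CPM. The level was 2.67-fold higher, a log2 fold change of 1.42 (1.40 to 1.43), and TPM went from 769 to 1774. FN1 was in place 34 among all genes by reads in Huh7-NC and in place 8 in Huh7-si, where it took 0.527% of all reads in place of 0.197%. VIM encodes vimentin, the intermediate filament protein of mesenchymal cells. VIM (ENSG00000026025) gave 7796 control reads and 9771 reads after si-BRF2 (341 and 442 CPM, 246 and 362 TPM). It was 29.7% higher, a log2 fold change of 0.37 (0.33 to 0.42). VIM was already abundant in Huh7-NC, and its antisense gene VIM-AS1 had fewer than 3 reads in each library.

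KRT8 and KRT18 encode keratins 8 and 18, which assemble as a pair, and both were lower in Huh7-si. KRT8 (ENSG00000170421) gave 63427 control reads (2775 CPM) and 43258 reads after si-BRF2 (1958 CPM). The log2 fold change of KRT8 was -0.50 (-0.52 to -0.49), with TPM values of 2142 and 1727. KRT18 (ENSG00000111057) gave 32346 and 23280 reads, at 1415 CPM in the control and 1054 CPM after si-BRF2. For KRT18 the log2 fold change was -0.43 (-0.45 to -0.40), with TPM values of 1415 and 1191. KRT8 reads per KRT18 read were 1.96 (1.93 to 1.99) in the control and 1.86 (1.83 to 1.89) after si-BRF2, a 0.948-fold change. The intervals do not overlap but cover counting error only, and the spread between replicate libraries is unknown, so so small a shift cannot be judged.

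The keratin genes lie side by side on chromosome 12 and their annotated ends overlap on opposite strands. They also have many pseudogenes in the table, 51 named for KRT8 and 67 for KRT18. These pseudogenes held reads equal to 0.172% and 0.399% of the KRT8 reads, and to 0.0792% and 0.194% of the KRT18 reads, in the control and after si-BRF2. EPCAM encodes a surface adhesion protein of epithelial and hepatic progenitor cells. EPCAM (ENSG00000119888) gave 769 control reads and 786 reads after si-BRF2 (33.7 and 35.6 CPM, 30.2 and 36.5 TPM). With a log2 fold change of 0.08 (-0.06 to 0.23), or -0.14 under TMM, no direction can be given.

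In GENCODE release 29 (GRCh38), FN1 lies on chromosome 2 from 215360440 to 215436172 and EPCAM on the same chromosome from 47345158 to 47387601. ZEB1 (31318495 to 31529814) and VIM (17228259 to 17237593) lie on chromosome 10, and KRT8 (52897187 to 52949954) and KRT18 (52948871 to 52952901) on chromosome 12. SNAI1 (ENSG00000124216) lies on chromosome 20 from 49982999 to 49988886, and TWIST1 (ENSG00000122691) on chromosome 7 from 19020991 to 19117672. No other annotated gene overlaps FN1 or SNAI1.

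**Figure D2:**
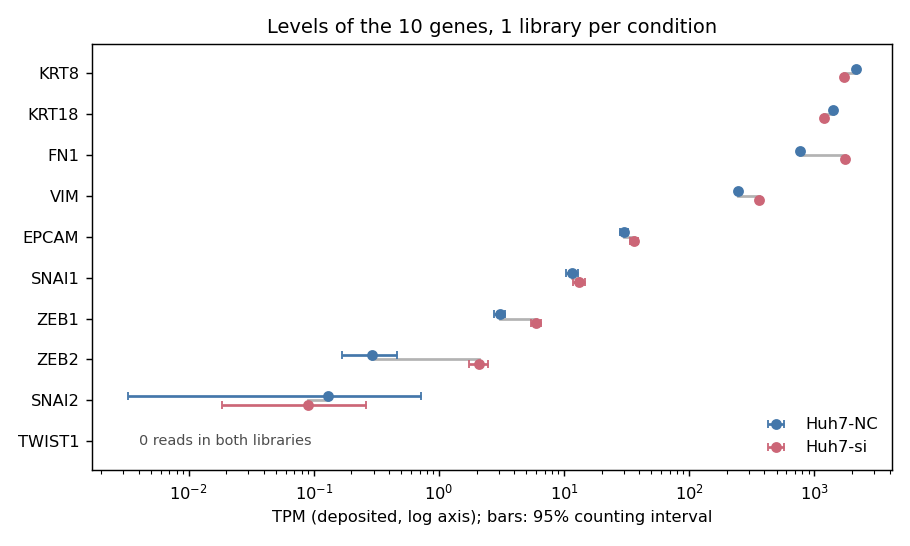
Deposited TPM of the 10 genes on a log axis in Huh7-NC (blue) and Huh7-si (red), 1 library each, with 95% counting intervals as bars. The levels span from 0.13 TPM for SNAI2 to 2142 TPM for KRT8 in Huh7-NC, and TWIST1 had 0 reads.

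By TPM, the order in Huh7-NC was KRT8, KRT18, FN1, VIM, EPCAM, SNAI1, ZEB1, ZEB2, SNAI2 and TWIST1. Of the 8 neighbouring pairs with reads, ZEB2 and SNAI2 alone had overlapping counting intervals. In Huh7-si, FN1 (1774 TPM) stood above KRT8 (1727 TPM), and the other genes kept their order. Where CPM was divided by the gene length in the table in place of the deposited TPM, FN1 was in the third place in both libraries, so its place against the keratins in Huh7-si depends on the length used.

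Ratios of reads between genes of the same library do not depend on how the libraries are scaled. The ratio of FN1 to KRT8 reads was 0.711 (0.702 to 0.719) in the control and 2.69 (2.66 to 2.72) after si-BRF2, 3.79-fold higher, or 2.86-fold by TPM. The ratio of VIM to KRT18 reads was 0.241 (0.235 to 0.247) and 0.420 (0.410 to 0.430), 1.74-fold higher. These intervals do not overlap between the libraries, but the spread between replicate libraries is unknown. FN1 also differed from VIM, with 5.78 FN1 reads per VIM read in the control and 11.9 after si-BRF2, so the mesenchymal genes did not change by the same factor.

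**Figure D3:**
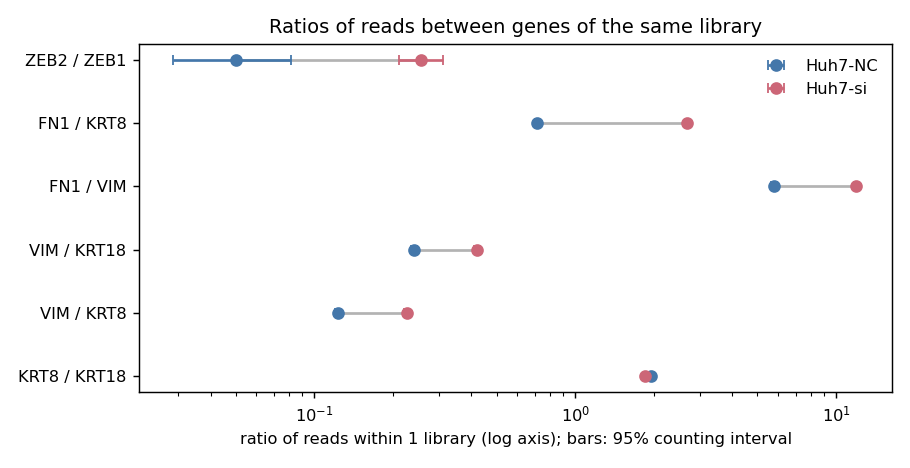
Ratios of the reads of gene pairs within 1 library, on a log axis, in Huh7-NC (blue) and Huh7-si (red) with 95% counting intervals. The ratio of FN1 to KRT8 goes from 0.711 to 2.69, while that of KRT8 to KRT18 goes from 1.96 to 1.86.

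Gene length moved with the change over the whole table and therefore with these genes. In 20 classes of equal gene number, the shortest genes had a median log2 fold change of -0.06, the next class -0.17 and the longest genes 0.67. ZEB2 (9583 bases in the table), FN1 (8390 bases) and ZEB1 (5937 bases) are long, and the keratins, EPCAM and SNAI1 are 1420 to 1705 bases long. Relative to the median of its class, ZEB2 was higher by 2.34, FN1 by 0.88 and ZEB1 by 0.22 on the log2 scale. VIM was then at 0.31, EPCAM at 0.13, SNAI1 at -0.04, KRT18 at -0.34 and KRT8 at -0.55. By this measure ZEB2 alone of the 8 was past a 2-fold change. In the class of the longest genes, 27.2% of genes were at least 2-fold higher, and in the class that holds FN1, 17.0%. The part of length in these values was not tested.

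**Figure D4:**
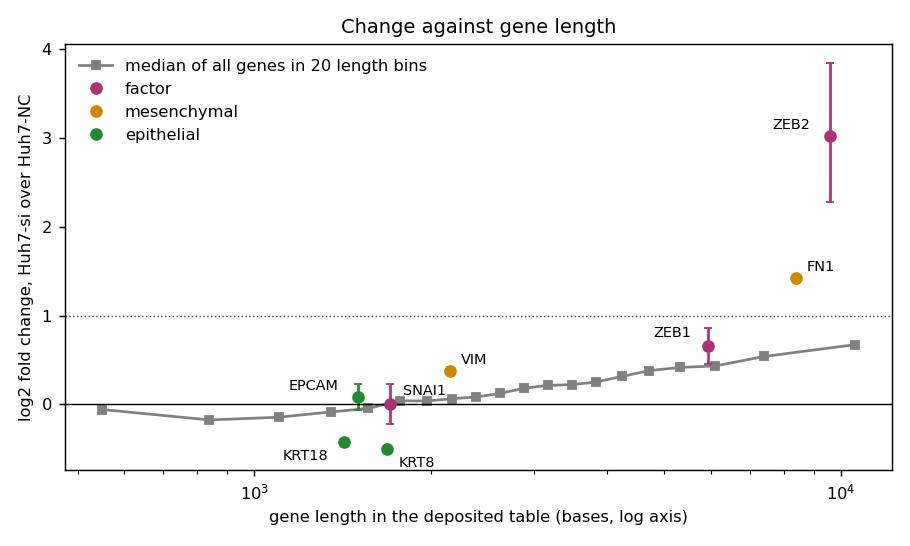
Log2 fold change, Huh7-si over Huh7-NC, against gene length on a log axis for the 8 genes (points with 95% counting intervals) and the median of all genes in 20 length classes (grey squares). ZEB2 lies 2.34 above the median of its class, ZEB1 0.22 above and KRT8 0.55 below.

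Related genes were taken from lists and are given by their counts beside the background. Counts of direction, here and in the closing section, have a background of their own. Of all 17921 genes, 35.6% were at or below the log2 fold change of SNAI1 (0.01), so most genes were higher. Under TMM the median of all genes was -0.01. Of 9 other factors of the transition, 4 had at least 10 reads and 3 had none. None of the 4 was at least 2-fold higher, beside 15.2% of all genes, and the highest was TCF4, a helix-loop-helix factor (log2 fold change 0.48). SNAI3, a relative of SNAI1 with 14 and 4 reads, was at least 2-fold lower (-1.76, interval -3.82 to -0.09). That makes 1 of the 4, beside 1.81% of all genes. Among 10 epithelial factors, which oppose the transition, all 10 were higher in Huh7-si, also under TMM. Their median was 0.43, or 0.21 under TMM. The counting intervals of ESRP1, OVOL1 and OVOL2, which had few reads, held 0. KLF4 (193 to 388 reads, 1.06) and GRHL2 (4 and 8 reads, 1.05, interval -0.85 to 3.23) passed 2-fold, 2 of the 10 beside 15.2% of all genes. Under TMM 0 of the 10 did, beside 11.05% of all genes, and by the TPM columns 3 did, beside 20.9%. ESRP2, an epithelial splicing regulator, had 821 and 1033 reads.

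The other epithelial genes were spread around 0. Of 20 genes of junctions and epithelial surfaces, 19 had at least 10 reads, of which 13 were higher and 6 lower in Huh7-si, or 8 and 11 under TMM. Their median was 0.06, or -0.16 under TMM. CDH1, which encodes E-cadherin and is the best known target of ZEB repression, gave 1101 control reads and 1564 after si-BRF2. Its log2 fold change of 0.56 (0.44 to 0.67) was 0.17 above the median of its length class. CDH2, which encodes N-cadherin, gave 1620 and 2869 reads, with a log2 fold change of 0.87 (0.79 to 0.96). CDH2 reads per CDH1 read were 1.47 (1.36 to 1.59) in the control and 1.83 (1.72 to 1.95) after si-BRF2. MUC1, a cell surface mucin, was the gene of this list at least 2-fold higher (7 to 23 reads, 1.77, interval 0.50 to 3.23), 1 of the 19 beside 15.2% of all genes.

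Of 14 other mesenchymal genes, 10 had at least 10 reads, and 9 of them were higher, or 8 under TMM. TNC (9 to 52 reads, 2.58), FBN1 (64 to 236 reads, 1.93) and THBS1 (1098 to 2724 reads, 1.36), which encode matrix glycoproteins, were at least 2-fold higher, 3 of the 10 beside 15.2% of all genes. Less the medians of their length classes, the values were 1.91, 1.26 and 0.82. CDH11, MMP2 and MMP9 had 0 reads in both libraries. S100A4 was the gene of the list that was lower (91 to 51 reads, -0.79).

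Markers of fibroblasts were set beside these genes. Of 7, 6 had at least 10 reads, and all 6 were higher by CPM, also under TMM. Their median was 1.07, or 0.65 less the medians of their length classes. The interval of LUM held 0 (-0.12 to 1.18), and its TPM was 1.33 in both libraries. The collagen genes COL1A1 (76 to 229 reads, 1.64), COL3A1 (19 to 44 reads, 1.26) and COL1A2 (737 to 1687 reads, 1.24) were at least 2-fold higher, 3 of the 6 beside 15.2% of all genes. By the TPM columns 2 of the 6 passed 2-fold, beside 20.9% of all genes, and COL3A1 was at 0.89. Less the medians of their length classes 1 of the 6 did, COL1A1 at 1.21, with COL3A1 at 0.84 and COL1A2 at 0.83. The summed level of the list was 47.5 CPM in the control and 106 CPM after si-BRF2. DCN, a defining fibroblast gene, had 0 reads in both libraries. Of the endothelial markers 1 of 5 and of the immune markers 3 of 6 had at least 10 reads, with summed levels of 2.63 and 2.85 CPM and of 482 and 424 CPM (of which LYZ 467 and 409). KDR, TEK and CD3E had 0 reads. All 7 hepatocyte markers were abundant, at a summed 17613 CPM in the control and 17224 CPM after si-BRF2. Of these 7, 2 were higher and 5 lower, or 1 and 6 under TMM, with a median of -0.06, or -0.28 under TMM. They ranged from APOA2, an apolipoprotein gene, at -0.49 to AFP, the alpha-fetoprotein gene, at 0.24, and KRT8 at -0.50 lay next to APOA2. The part of other cell types in the result was not tested.

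In the TGF-β pathway, which induces the transition in many epithelia, 13 of 14 genes were higher, or 8 under TMM, with a median of 0.39, or -0.05 less the medians of their length classes. TGFB2, a ligand gene, was at least 2-fold higher, at 11.5 CPM in the control and 34.8 CPM after si-BRF2, which makes 1 of the 14 beside 15.2% of all genes. Its log2 fold change of 1.60 (1.39 to 1.80) was 1.18 above the median of its length class. By the TPM columns 3 of the 14 passed 2-fold, beside 20.9% of all genes, namely TGFB2 (1.83), the ubiquitin ligase gene SMURF2 (1.18) and the receptor gene TGFBR3 (1.09). The ligand gene TGFB1 had -0.09 and the receptor genes TGFBR1 and TGFBR2 had 0.59 and 0.05. Of 14 corepressor genes with which ZEB or SNAI factors work, 6 were higher and 8 lower, or 5 and 9 under TMM. Their median was -0.02, and 0 were past 2-fold, beside 15.2% of all genes higher and 1.81% lower. They ranged from RBBP7 (-0.27) to CHD4 (0.59). Of 7 genes of SNAI1 phosphorylation and turnover, 0 passed 2-fold, beside the same shares of all genes. Their values ran from the kinase gene GSK3A (-0.20) to the ubiquitin ligase gene FBXW7 (0.72).

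Of 9 linker, filament and lamin genes, 7 were higher and 2 lower, also under TMM. The plakin genes among them encode proteins that tie keratin and other filaments to junctions and the cytoskeleton. The plakin genes PLEC (3275 to 7783 reads, 1.30), PPL (284 to 659 reads, 1.26) and DST (1398 to 3145 reads, 1.22) were at least 2-fold higher, 3 of the 9 beside 15.2% of all genes. These genes are long, and less the medians of their length classes the values were 0.63, 0.83 and 0.55. By that measure 0 of the 9 passed 2-fold, beside 11.5% of all genes. The median of the 9 was 0.80, or 0.13 less the medians of their length classes. Under TMM, DST was at 0.99 and so below 2-fold. LMNA, which encodes lamin A and C, was lower (-0.34).

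**Figure D5:**
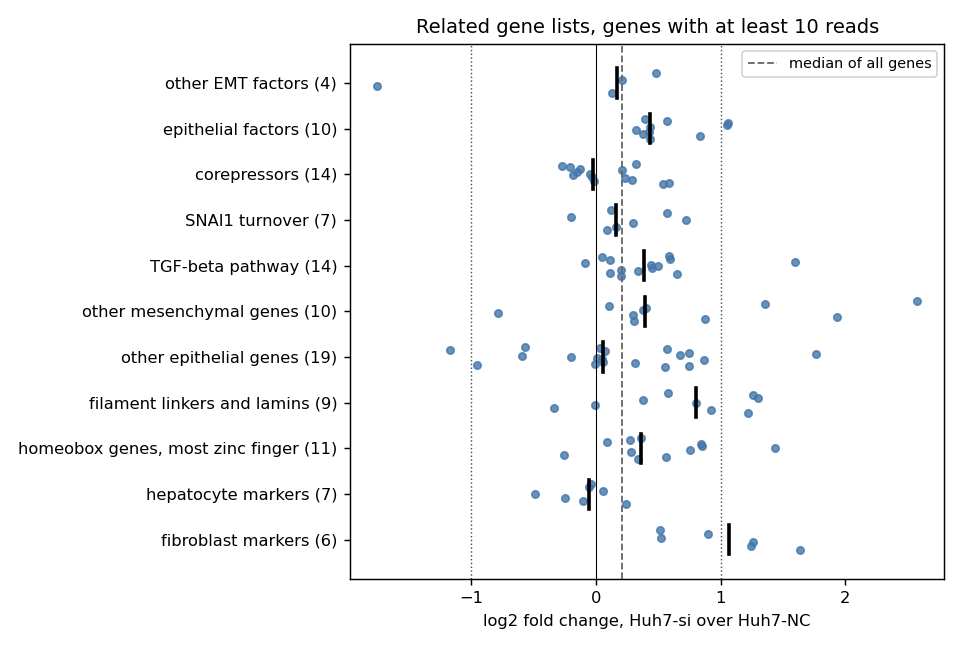
Log2 fold change, Huh7-si over Huh7-NC, of each gene with at least 10 reads in 11 lists (points, with the number of genes in brackets) and the list median (black bars); the dashed line is the median of all genes (0.21) and the dotted lines mark a 2-fold change. Filament linkers (median 0.80) and fibroblast markers (1.07) lie to the right and corepressors (-0.02) near 0. Less the medians of length classes, which are not drawn here, these list medians were 0.13, 0.65 and -0.18.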

How the data were processed

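Of the 2 libraries of the series, 1 was Huh7-NC and 1 was Huh7-si, grouped by their titles. The authors deposited estimated counts (22852648 and 22089016 reads in all) and TPM values per gene for each library, with the gene length. The ratio (fold), log2 and p-value columns that the authors deposited hold their own comparison of the libraries and were not used. The submitters' processing notes name Bowtie2 2.0.6, TopHat2 2.0.12 and GRCh37 with no role; the counting tool, annotation and strandedness are not given in the sources used here. Of the gene identifiers, 94.8% were in GENCODE release 29 (GRCh38), whose positions were used as background alone. Counts were rounded for scaling factors and intervals (Clopper-Pearson for ratios, exact Poisson for levels). The members and lists were chosen with earlier results of these data known. Named were the 10 members, BRF2 and, per list, the genes past 2-fold with at least 30 reads, or else the highest and the lowest. The rule let any other gene of a list be named too, and those (ESRP2, GRHL2, CDH1, CDH2, S100A4, LMNA, LYZ and the TGF-β ligand and receptor genes among them) were chosen after their values were seen. The values of 1 listed gene are not reported here. Genes like ZEB2 were those nearest in log2(CPM + 0.5). Alternatives were 4 scalings (edgeR 4.0.16, DESeq2 1.42.0), TPM, pseudocounts, centring by length or reads, filters and a fold of 1.5. Scripts were tested on simulated data. Python 3.11.15, SciPy 1.17.1 and R 4.3.3 were used.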

Additional observations from a re-analysis of the deposited data

How the results depend on the processing

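The count of members at least 2-fold higher was 2 with each of the 4 other scalings, the TPM columns, both pseudocounts, centring by total reads and both stricter filters. The share of all genes past 2-fold in these settings ran from 5.08% with the 1 CPM pseudocount to 20.9% by TPM. It was 3 without a filter, where SNAI2 entered with 4 reads (19.5% of all genes). At a fold of 1.5, where ZEB1 entered, the count was 3 (28.9% of all genes). It was 1 after the median of genes of like length was taken off, which left FN1 at 0.88 (11.5% of all genes were past 2-fold). The count of members at least 2-fold lower was 0 under each alternative, beside 0.240% (1 CPM pseudocount) to 9.72% (no filter) of all genes. The log2 fold change of ZEB2 ranged from 2.01 to 2.99, with the 1 CPM pseudocount lowest, past 2-fold in each of 9 alternatives. FN1 ranged from 0.88 to 1.58, ZEB1 from 0.22 to 0.97, VIM from 0.15 to 0.55, KRT8 from -0.73 to -0.31 and KRT18 from -0.65 to -0.25, with no change of sign. SNAI1 changed sign in 6 and EPCAM in 4 of 9 alternatives. The cause of these moves was not tested beyond what each setting does by construction. No paired analysis was possible because each condition has 1 library, and for the same reason no library could be left out. Depth limits SNAI2 and TWIST1, and the 17 reads of ZEB2 in Huh7-NC set the width of its interval.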

Other observations

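A list of homeobox genes, most of which carry zinc fingers together with homeodomains as ZEB1 and ZEB2 do, held 12 genes. HOMEZ, which encodes homeodomains and a leucine zipper, is an exception, and it was the list's lower gene (-0.25). Of the 12, 11 had at least 10 reads, 10 were higher in Huh7-si, or 9 under TMM, and the median log2 fold change was 0.36, or 0.08 relative to genes of like length. ZFHX2 was at least 2-fold higher, from 77 to 202 reads (log2 fold change 1.44, 1.05 to 1.84), which makes 1 of the 11 beside 15.2% of all genes. By the TPM columns ZFHX2 was at 0.51, and 3 others of the 11 were at least 2-fold higher, TSHZ2 (2.20), ZFHX4 (1.73) and ZFHX3 (1, just at the limit), beside 20.9% of all genes.

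The 3 genes with a symbol whose levels in the 2 libraries were most like those of ZEB2, by distance in log2(CPM + 0.5), were MIR34AHG (19 to 123 reads, distance 0.143), PPFIA4 (22 to 129 reads, 0.237) and ADAMTS16-DT (21.3 to 146 reads, 0.241). Only 2 values per gene are a coarse pattern, and the likeness says nothing of shared control.

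The TPM columns and the counts give different ratios for some members. Over the genes tested, the log2 ratio by TPM exceeded that by CPM by a median of 0.18. For VIM, KRT8, KRT18, EPCAM and SNAI1 the difference was between 0.177 and 0.192, close to that median. For ZEB1 it was 0.31, while for ZEB2 it was -0.17 and for FN1 -0.21, so the TPM columns bring the change of ZEB1 closer to those of ZEB2 and FN1.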
